A study of Mus musculus with 13 samples.

Results

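The CCR2 axis of monocyte recruitment was followed in mouse liver as 5 genes, the ligands Ccl2, Ccl7, Ccl8 and Ccl12 and their receptor Ccr2, out of 55353 gene symbols listed in the data. The genes were chosen by name, and their unique molecular identifiers (UMIs, 1 per captured transcript) were read in barcodes with at least 1500 UMIs, by marker-defined cell class and by day of diet. The cells came from livers of male C57BL/6J mice that were 6 to 12 weeks old and were sequenced with droplet-based 3′ scRNA-seq. The mice received control chow (D0) or DDC, which is 3,5-diethoxycarbonyl-1,4-dihydrocollidine and injures bile ducts, at 0.1% of the chow for 3, 5, 9, 19 or 25 days. Each of these 6 time points has 1 library of isolation protocol A and 1 of protocol B, so that 2 libraries stand for steady state (D0), 4 for onset (from D3 and D5) and 6 for progression (from D9, D19 and D25). Here a library is called by its day and protocol, as D0 A. One further library (STOP, protocol B) came from mice returned to normal chow for 7 days after DDC, which lasted 18 days by the treatment notes and 19 by its group tag. The group tag of the D19 B library gives day 18. Protocol A combined sorted gates for leukocytes, endothelial, lymphatic, biliary and retinoid-storing cells, whereas protocol B combined a stellate cell preparation, Epcam+ cells, Cd3e+ cells and Cd45+ Itgax+ cells without Cd64, a surface marker of macrophages. The labels do not tie mice to libraries, so SDs and p-values describe the spread between libraries, which may be technical.

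Ccr2 is a G protein-coupled chemokine receptor that inflammatory monocytes need to leave the bone marrow and to enter inflamed tissue. Ccl2, Ccl7, Ccl8 and Ccl12 are monocyte chemoattractant proteins, small secreted CC chemokines of which Ccl2, Ccl7 and Ccl12 attract cells through Ccr2 and mouse Ccl8 is also known as a ligand of Ccr8. In the liver, macrophages, stellate cells and injured cholangiocytes are known sources of these chemokines, and recruited monocytes can become macrophages beside the resident Kupffer cells.

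The 4 ligand genes lie on chromosome 11 of the GRCm38 build, all on the plus strand within 81.2 kb, with Ccl11 between Ccl7 and Ccl12. Ccl2 (chr11:82035571-82037453) comes first, followed by Ccl7 (chr11:82045712-82047525), Ccl12 (chr11:82101845-82103400) and Ccl8 (chr11:82115185-82116799). Ccr2 (chr9:124101950-124113557, plus strand) lies after Ccr1 and Ccr3 on chromosome 9. The 60 bases before the start site are shown for Ccl8, Ccl12 and Ccr2, since the RefSeq promoters used held no entry for Ccl2 and Ccl7. These 2 ligands could thus not be compared. The start site of the Ccr2 promoter entry lies inside the gene as annotated. The windows were taken from RefSeq on GRCm38.p6, plus strand, at chr11:82115125-82115184 for Ccl8, chr11:82101785-82101844 for Ccl12 and chr9:124102123-124102182 for Ccr2. Capitals mark the letters TATAAAAG, a TATA box sequence, searched as written.
Ccl8: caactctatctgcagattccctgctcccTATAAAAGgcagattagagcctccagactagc
Ccl12: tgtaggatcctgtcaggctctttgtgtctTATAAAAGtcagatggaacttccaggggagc
Ccr2: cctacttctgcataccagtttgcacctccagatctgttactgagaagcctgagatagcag
The match began at position -32 from the start site in Ccl8 and at -31 in Ccl12, and 203 of 32851 promoter windows (0.618%) hold these letters. Over 300 bases of promoter, aligned end to end with gaps allowed, Ccl8 and Ccl12 had 193 identical bases (64.3%). Ccl8 and Ccr2 had 171 (57.0%) and Ccl12 and Ccr2 had 174 (58.0%). Since gaps were allowed, these counts are not a comparison position by position. On both strands, no match was found in these 3 promoters for the NF-kB motif, the interferon response element (ISRE), TGANTCA (AP-1), TTGCNNAA (C/EBP) or GAGGAAGT (PU.1), which occur in 50.8%, 3.44%, 7.81%, 10.8% and 3.20% of all promoters.

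The libraries held 29307190 to 108602421 UMIs, of which 65.0% to 93.4% lay in cells, and 1541 (D3 B) to 14764 (D9 A) cells passed the UMI minimum, 95563 in all. Clustering without the 5 members gave 11561 macrophage-like cells (3784 Kupffer-like and 7777 other macrophage-like), 1178 monocyte-like, 6372 BEC-like (biliary epithelial), 27356 LSEC-like (liver sinusoidal endothelial), 1817 fibroblast-like and 14237 DC-like (dendritic) cells. All 16 macrophage markers were above 0 in the macrophage-like cells of every library, which is no test of the name, since the markers served to give it. Pairs of libraries shared at most 49 barcodes. Levels are given as UMIs per 1000000 UMIs (CPM) summed over the cells of a class in 1 library with at least 20 such cells, so that fewer transcripts per cell cannot be told apart from fewer expressing cells. D0 A and D0 B differed in makeup, since 73.8% of the macrophage-like cells of D0 A but 8.55% of those of D0 B were Kupffer-like, against 15.1% to 54.0% under DDC. They also had more RNA of 10 early response genes such as Fos and Jun, with a summed level in macrophage-like cells of 11920 and 16200 CPM against 5154 to 8108 CPM under DDC, and the part of this in the results was not tested.

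Ccl7 and Ccr2 were found in several cell classes, whereas Ccl8 and Ccl12 lay mostly in macrophage-like cells and Ccl2 in BEC-like cells. Of the UMIs in atlas cells (D0 to D25), macrophage-like cells held 76.4% for Ccl12, 68.4% for Ccl8, 42.9% for Ccl7 and 23.8% for Ccl2, beside 17.9% of all UMIs. BEC-like cells held 50.4% of the Ccl2 UMIs and fibroblast-like cells 23.9% of the Ccl7 UMIs, although the latter cells held 2.09% of all UMIs. DC-like cells held 50.4% of the Ccr2 UMIs and macrophage-like cells 24.4%. Epcam+ and Itgax+ cells were among the sorted gates, so these shares depend on how many cells of a class were sorted. With the classes ranked by mean CPM, 5 of 25 neighbouring pairs differed by an exact sign-flip test over libraries after adjustment over the pairs of that gene. The other 20 pairs did not pass, and 2 of them, between BEC-like and monocyte-like cells for Ccl2 and Ccl12, shared 5 libraries and could not, since the smallest exact p was then 0.0625.

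**Figure D1:**
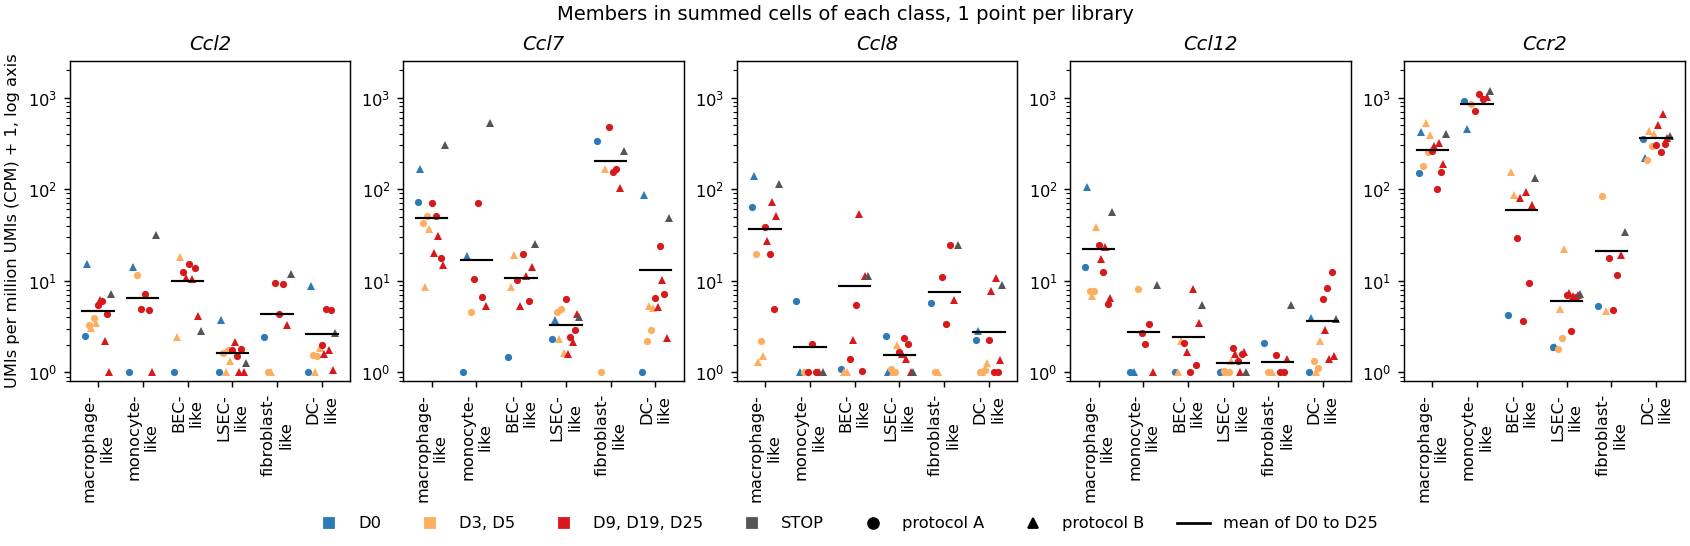
Levels of Ccl2, Ccl7, Ccl8, Ccl12 and Ccr2 by cell class, 1 point per library with at least 20 cells, as CPM + 1 on a log axis. Colours give the stage, shapes the protocol and bars the mean of the D0 to D25 libraries. Ccr2 was highest in monocyte-like cells (mean 856 CPM), Ccl7 in fibroblast-like cells (mean 200 CPM), Ccl8 and Ccl12 in macrophage-like cells and Ccl2 in BEC-like cells.

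The receptor Ccr2 was highest in monocyte-like cells, among the 6 classes ranked, with 856 ± 216 CPM (SD, n = 7 libraries), followed by DC-like cells with 357 ± 129 CPM (n = 12) and macrophage-like cells with 269 ± 128 CPM (n = 12). Monocyte-like cells exceeded DC-like cells in 7 of 7 libraries (exact sign-flip test, two-sided p = 0.0156, adjusted p = 0.0391), the smallest p that 7 libraries allow. DC-like cells exceeded macrophage-like cells in 10 of 12 libraries, which did not pass adjustment (exact p = 0.0356, adjusted p = 0.0594) but passed with doublets removed (exact test, adjusted p = 0.0407) and at cluster resolution 1.0 (adjusted p = 0.0399). Macrophage-like cells exceeded BEC-like cells (57.5 ± 51.2 CPM) in 9 of 9 libraries (exact p = 0.00391, adjusted p = 0.0195), and fibroblast-like (20.1 ± 28.7 CPM) and LSEC-like cells (5.07 ± 5.61 CPM) came last. After thinning each cell to 1500 UMIs, 53.6% of monocyte-like, 35.6% of DC-like and 20.7% of macrophage-like cells had a Ccr2 UMI, against 0.954% of neutrophil-like and 0.647% of LSEC-like cells, which were taken as the background. Library medians of UMIs per cell ranged from 3168 to 9350 in monocyte-like, 6287 to 17883 in DC-like, 4719 to 19398 in macrophage-like, 2063 to 4130 in neutrophil-like and 2167 to 8749 in LSEC-like cells before thinning. Of the classes not ranked, basophil-like cells had a mean of 374 CPM of Ccr2 (n = 6 libraries, 319 cells), NK-like cells 147 CPM and T-like cells 116 CPM.

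Within the classes, Ccr2 followed the split between classical and nonclassical monocytes and between resident and other macrophages. Classical monocyte-like cells, the inflammatory type, had 850 (D0 B), 758 (D9 A) and 1016 CPM (D25 A) of Ccr2, and nonclassical, patrolling monocyte-like cells had 9.27, 146 and 120 CPM in the same libraries. The difference was a log2 fold change of 3.16 (SE 0.39, edgeR with the library as a block, adjusted p = 0.000413), in a comparison where 18% of 1899 genes were called. Kupffer-like cells had 5.28 to 90.7 CPM of Ccr2 and other macrophage-like cells 146 to 592 CPM, with no overlap between them (edgeR, log2 fold change -3.77, SE 0.22, adjusted p = 8.69e-12), where 44.8% of 9786 genes were called. Of the ligands in that comparison, Ccl8 (log2 fold change -3.41, SE 0.45, edgeR adjusted p = 2.81e-06) and Ccl12 (-0.93, SE 0.34, edgeR adjusted p = 0.0292) were lower in Kupffer-like cells. A cluster of 47 other macrophage-like cells led by Cd209g and Cd209f, described below, held 1833 of the 3398 Ccl8 UMIs of macrophage-like cells. At onset, other macrophage-like cells held 0 of 7 Ccl8 UMIs in D5 A, 0 of 1 in D3 B and 1 of 2 in D5 B. In D3 A they held 184 of 225, of which 183 lay in the cluster. The Ccl12 call was lost without any 1 of D0 A, D0 B, D5 B, D9 A, D19 B or STOP, with adjusted p between 0.0518 and 0.0778. Ccl7 did not differ detectably (edgeR, 0.01, SE 0.35, adjusted p = 0.993), with a sign that turned under other settings, and Ccl2 was too low to be tested. In DC-like cells, cDC2-like (409 CPM) and cDC1-like cells (352 CPM) held most of Ccr2, against 33.4 CPM in mature DC-like cells.

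**Figure D2:**
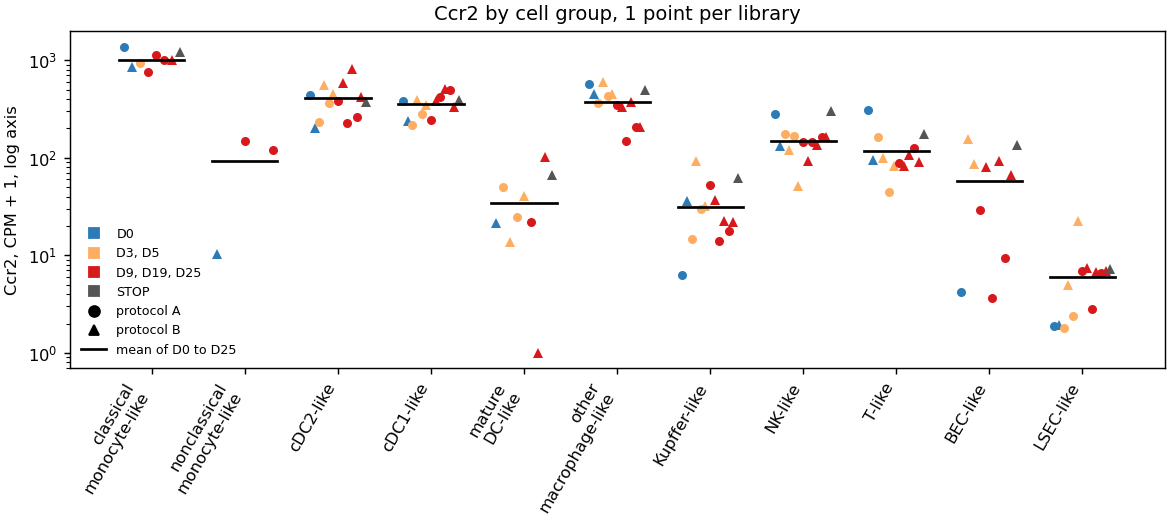
Ccr2 level by cell group, 1 point per library with at least 20 cells, as CPM + 1 on a log axis. Colours give the stage, shapes the protocol and bars the mean of the D0 to D25 libraries. Classical monocyte-like cells lay at 758 to 1380 CPM in the D0 to D25 libraries, above every library of Kupffer-like cells (5.28 to 90.7 CPM).

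In the main fits, DDC did not change Ccr2 detectably in any class, although edgeR without a filter on low counts called it in BEC-like cells. In macrophage-like cells, D0 A had 149 CPM and D0 B 420 CPM, and the 10 DDC libraries ranged from 98.6 to 531 CPM with a median of 254 CPM (edgeR, log2 fold change -0.03, SE 0.33, adjusted p = 0.984). Its 2 groups had fitted changes of opposite sign. Kupffer-like cells had 5.28 (D0 A) and 34.95 CPM (D0 B) and 12.96 to 90.7 CPM under DDC (edgeR, 1.96, SE 0.78, adjusted p = 0.208, and 0.30 without D0 A), and other macrophage-like cells had 570 and 451 CPM and 146 to 592 CPM under DDC (edgeR, -0.56, SE 0.25, adjusted p = 0.217). Both had an unadjusted p under 0.05 and neither was called, and the class thus pooled different mixes. In monocyte-like cells, D0 had 927 (A) and 448 CPM (B) against 716 to 1091 CPM in 5 DDC libraries (edgeR, 0.39, SE 0.34, adjusted p = 0.732). This class also compared different mixes, since nonclassical cells made up 53.1% of it at D0 and 9.55% in progression, and classical cells alone had 1380 and 850 CPM at D0 and 758 to 1142 CPM under DDC. No gene was called in the comparison of monocyte-like cells (0% of 5315 genes, edgeR), with 486 genes at an unadjusted p below 0.05 and 14 genes called by DESeq2. In DC-like cells, D0 had 355 and 216 CPM against 206 to 666 CPM under DDC (edgeR, 0.19, SE 0.25, adjusted p = 0.743). In all 3 classes the ranges of the D0 and the DDC libraries overlapped. BEC-like cells had 3.19 CPM in D0 A and 2.67 to 154 CPM in 8 DDC libraries, where the 5 libraries of protocol B (65.7 to 154 CPM) all lay above the 3 of protocol A (2.67 to 28.2 CPM), and the contrast was not called (edgeR, 2.81, SE 0.93, adjusted p = 0.135). The 16 macrophage markers summed to 209 CPM in the BEC-like cells of D0 A and to 447 to 2148 CPM under DDC, with 15 or 16 of the markers above 0 in each library. Barcodes with 10 to 100 UMIs, which hold free RNA, had 0 to 238 CPM of Ccr2. With doublets removed, the mean Ccr2 level of BEC-like cells was 28.6 CPM in place of 57.5 CPM, still below macrophage-like cells in 9 of 9 libraries. The part of free RNA was not tested.

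Ccl7 was the ligand with the most UMIs in fibroblast-like and macrophage-like cells, and it was lower under DDC than at D0 in macrophage-like cells other than Kupffer-like cells. Fibroblast-like cells had 200 ± 159 CPM (SD, n = 7) and macrophage-like cells 47.8 ± 43.0 CPM (n = 12), and the former were higher in 6 and lower in 1 of 7 shared libraries (D5 A, 20 cells), which did not pass (exact p = 0.328, adjusted p = 0.41). With at least 3000 UMIs per cell they were higher in 6 of 6 libraries, again without passing adjustment (exact p = 0.0312, adjusted p = 0.0521). Monocyte-like (15.8 CPM), DC-like (12.1 CPM), BEC-like (9.64 CPM) and LSEC-like cells (2.26 CPM) followed by their means over all their libraries. Of the other classes, B-like cells had a mean of 35.8 CPM (n = 7), for which D3 A had 194 CPM with 96% of its UMIs in 1 cell. In the 9 libraries that both classes shared, however, BEC-like cells (9.64 CPM) were higher than DC-like cells (6.42 CPM) in 7, which did not pass (exact p = 0.0508, adjusted p = 0.0846) but did at cluster resolution 1.0 (8 of 9, exact test, adjusted p = 0.0488). BEC-like exceeded LSEC-like cells in 8 of 9 libraries (exact p = 0.00781, adjusted p = 0.0391), a call that was lost with doublets removed (adjusted p = 0.0586). After thinning, 12.9% of fibroblast-like and 3.69% of macrophage-like cells had a Ccl7 UMI, against 0.0685% of T-like cells, in which library medians were 2119 to 7036 UMIs per cell and which served as the background for the ligands.

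In macrophage-like cells, Ccl7 was at 71.8 CPM in D0 A and 167 CPM in D0 B. Under DDC it was at 42.1 (D3 A), 7.49 (D3 B), 50.4 (D5 A), 35.3 (D5 B), 70.1 (D9 A), 18.9 (D9 B), 50.3 (D19 A), 29.8 (D19 B), 16.6 (D25 A) and 13.8 CPM (D25 B). Both D0 libraries lay above all 10 DDC libraries, although D0 A and D9 A differed little. In D0 A, 11 cells of the Cd209g and Cd209f cluster held 137 of the 237 Ccl7 UMIs. Outside that cluster D0 A was at 30.9 CPM, below D3 A (38.5), D5 A (50.4), D5 B (35.3), D9 A (66.6) and D19 A (47.5 CPM). It stayed above D3 B, D9 B, D19 B, D25 A and D25 B, and D0 B (150.5 CPM) stayed above all of them. Over the whole class, the log2 fold change was -2.17 (SE 0.58, edgeR adjusted p = 0.048). In that comparison 609 of 12197 genes (4.99%) were called, 287 higher and 322 lower under DDC. The Ccl7 call was the 1 call among 23 tests of the members against D0 in the 6 classes, 8 of which had an unadjusted p under 0.05. Such a p was common among all genes, as for 2481 of 12188 genes in macrophage-like cells without the Cd209g and Cd209f cluster (edgeR). The Ccl7 call was lost without the protocol term and with doublets removed, and it was kept with DESeq2. It rested on D0 B, without which the log2 fold change was -0.34 (edgeR adjusted p = 0.788), and it passed in 2 of the 12 fits that left out 1 library, those without D0 A or D9 A. Within protocol A the level was 71.8 CPM at D0 and 45.9 CPM on average in 5 DDC libraries, and within protocol B it was 167 and 21.1 CPM.

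The difference was larger in other macrophage-like cells, a split made after these values were seen. They had 201 (D0 A) and 173 CPM (D0 B) of Ccl7, and 7.86 to 64.0 CPM with a median of 19.4 CPM in the 10 DDC libraries, without overlap (edgeR, log2 fold change -2.97, SE 0.45, adjusted p = 0.00197), where 5.34% of 11607 genes were called. The call was lost without D0 B (edgeR adjusted p = 0.0637). The early response genes summed to 11960 and 18170 CPM at D0 and to 5345 to 9023 CPM under DDC in these cells, and their part in the difference was not tested. In D0 A, 11 cells of the Cd209g and Cd209f cluster held 137 of the 169 Ccl7 UMIs. Outside that cluster D0 A was at 41.4 CPM, below D9 A (45.5 CPM) and D19 A (59.9 CPM) and above the other DDC libraries. D0 B was at 155 CPM there, above all 10 DDC libraries. The comparison was also largely one between different clusters. A cluster led by Ly6i and H2-M2 held 246 of the 278 cells of D0 B and 34 of 7168 DDC cells, and a cluster led by Cd207 and Mmp13 held 67 of the 143 cells of D0 A and no DDC cell. One cluster, led by Gdf15 and Gpnmb, had at least 20 cells both at D0 (22 in D0 A) and under DDC, and its Ccl7 level was 5.50 CPM in D0 A, from 1 UMI, and 0 to 31.3 CPM under DDC. A change within other macrophage-like cells thus cannot be told apart from a change of the clusters present. Kupffer-like cells had 27.6 and 96.1 CPM at D0 and 4.77 to 115 CPM under DDC (edgeR, 0.59, SE 0.91, adjusted p = 0.808), where 1.86% of 10342 genes were called, 192 in all but 6 without D0 A, and this direction turned with DESeq2 (-0.63). The difference between the DDC effects of the 2 groups did not pass (edgeR, 3.03, SE 0.80, adjusted p = 0.134), in a test that called 0.251% of 11955 genes. It was called without D19 A (edgeR, 3.35, adjusted p = 0.025) and was 1.96 without D0 A (edgeR adjusted p = 0.59). The same test for Ccr2 gave 2.66 (SE 0.57, edgeR adjusted p = 0.0524), was called without D0 B, D3 A, D3 B or D9 A (edgeR adjusted p = 0.0345, 0.00716, 0.048 and 0.0432) and was 0.64 without D0 A (edgeR adjusted p = 0.871).

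**Figure D3:**
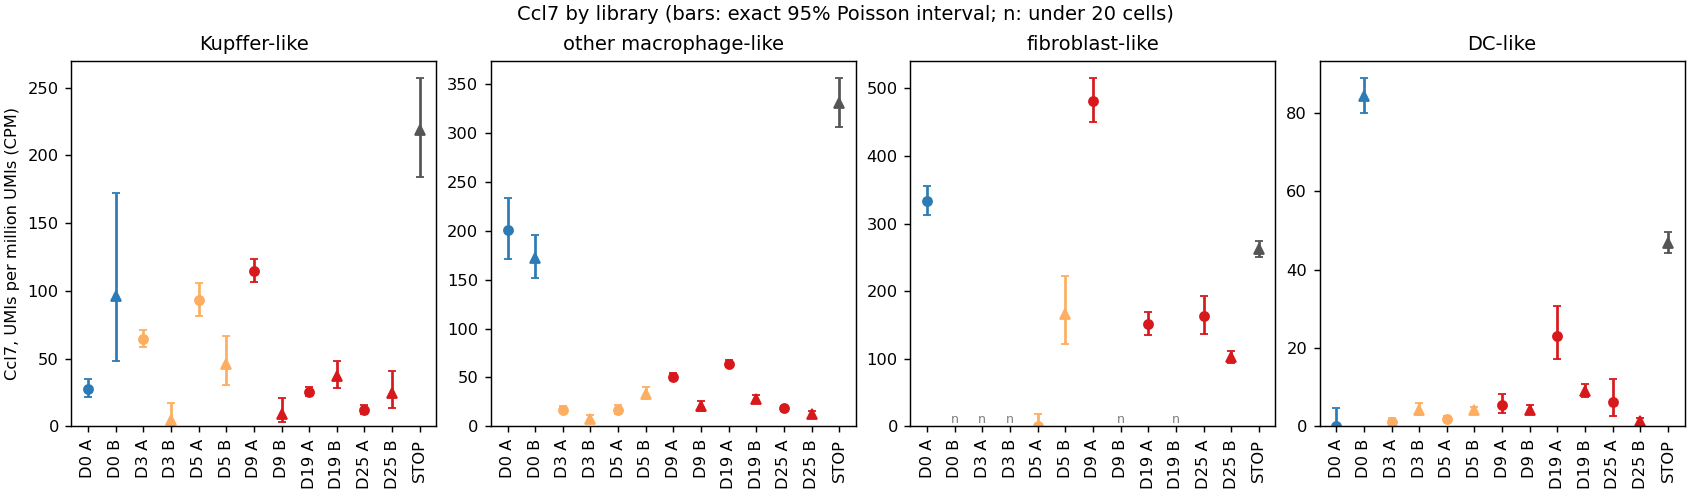
Ccl7 level by library in Kupffer-like, other macrophage-like, fibroblast-like and DC-like cells, in CPM on linear axes of their own. Circles are protocol A and triangles protocol B, with D0 in blue, D3 and D5 in orange, D9 to D25 in red and STOP in grey. Bars are exact 95% Poisson intervals, which cover counting error only, and n marks a library with under 20 cells of the class. In other macrophage-like cells both D0 libraries (201 and 173 CPM) lay above all DDC libraries (7.86 to 64.0 CPM), and STOP (331 CPM) lay above all others. Outside the Cd209g and Cd209f cluster, which is not shown, D0 A was at 41.4, D0 B at 155 and STOP at 181 CPM, against 7.86 to 59.9 CPM under DDC.

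In fibroblast-like cells, Ccl7 was at 334 CPM in D0 A and 0 (D5 A, 20 cells), 167 (D5 B), 481 (D9 A), 152 (D19 A), 163 (D25 A) and 103 CPM (D25 B) under DDC, so that D0 lay within the DDC range (edgeR, log2 fold change -1.21, SE 1.15, adjusted p = 0.729). No gene was called there (0% of 12151 genes, edgeR), with 1219 genes at an unadjusted p under 0.05 and 43 called by DESeq2. The cells fell into 2 clusters, 1 led by Clec3b, Scara5 and Mfap5 with 425 CPM of Ccl7 and 1 that had the stellate cell markers Colec11, Lrat and Reln with 163 CPM. In D0 A these clusters had 475 and 21.0 CPM, in D9 A 742 and 57.5 CPM, and in D25 B 25.5 and 108 CPM. The higher cluster thus changed between libraries, and STOP with 126.5 and 267 CPM had the order of D25 B. Among these libraries the change cannot be told apart from the protocol, which was A for D0 A and D9 A and B for D25 B and STOP. Both clusters also had at least 20 cells in D19 A (84 and 87) and D25 A (24 and 58), both of protocol A. Their Ccl7 levels by cluster are not given here.

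Of the 2 libraries at steady state, Ccl7 was found in the DC-like cells of D0 B. This library had 84.4 CPM and D0 A 0 UMIs in 86 cells, which allows up to 3.84 CPM, while 10 DDC libraries had 1.21 to 23.2 CPM. The fitted change was -3.61 (SE 0.85, edgeR adjusted p = 0.0536), where 1.31% of 13771 genes were called, and it turned to 8.68 without D0 B. It was called without D0 A (edgeR, -4.75, adjusted p = 0.00651) or D19 A (edgeR, -3.76, adjusted p = 0.0181). Barcodes with 10 to 100 UMIs had 86.7 CPM of Ccl7 in D0 B, about the level of its DC-like cells, whereas its T-like cells had 1.16 CPM, and the part of free RNA was not tested. In D0 B, cDC1-like cells, which cross-present antigen, held 1272 of the 1457 UMIs. The macrophage markers summed to 579 and 2837 CPM in DC-like cells at D0 and to 527 to 15090 CPM under DDC. BEC-like cells had 0.483 CPM of Ccl7 in D0 A (5 UMIs in 789 cells) and 4.28 to 18.7 CPM in the 8 DDC libraries, all above D0 A (edgeR, 4.74, SE 1.15, adjusted p = 0.0727). Only 1 library gave BEC-like cells at D0, and 1.46% of 15992 genes were called there.

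By mean level, Ccl8 and Ccl12 were highest in macrophage-like cells. Ccl8 had 35.7 ± 40.7 CPM there (SD, n = 12) and exceeded BEC-like cells (7.70 ± 17.2 CPM) in 9 of 9 libraries (exact p = 0.00391, adjusted p = 0.0195). With at least 3000 UMIs per cell the next class was fibroblast-like, which they exceeded in 5 of 6 libraries without passing (exact p = 0.188, adjusted p = 0.625). Ccl12 had 21.5 ± 27.9 CPM and exceeded DC-like cells (2.61 ± 3.62 CPM) in 11 of 12 libraries (exact p = 0.00146, adjusted p = 0.00732). The others of the 6 classes had means of 0.552 to 6.52 CPM for Ccl8 and 0.280 to 1.74 CPM for Ccl12. B-like cells, outside these classes, had a mean of 25.2 CPM of Ccl8 (n = 7), of which 45 of 46 UMIs lay in 1 cell of D3 A, so that in that library they stood at 174 CPM against 18.4 CPM in macrophage-like cells. After thinning, 1.03% of macrophage-like cells had a Ccl8 UMI and 1.62% a Ccl12 UMI, against 0.0799% and 0.0228% of T-like cells.

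The cluster of 47 cells named above held much of the Ccl8 of the macrophage-like class. It was led by Cd209g, Cd209f, Cbr2 and Pla2g2d and had F13a1, Pf4 and Cd163 among its top genes, and it made up 0.407% of the macrophage-like cells. Pooled over the 13 libraries it held 1833 of their 3398 Ccl8 UMIs (53.9%), 12.3% of Ccl7, 8.53% of Ccl12, 3.24% of Ccl2 and 0.182% of Ccr2, which are given as a description with no test. The Ccl8 share was 46.2% without D9 A, where the cluster held 600 of 730 UMIs. By library it was over 50% in 4 of 13, D0 A (74.3%), D3 A (81.3%), D9 A (82.2%) and STOP (70.4%), and 8.49% to 45.8% in 6 others, while D3 B, D5 A and D5 B had none of its cells. Its cells came from 10 libraries, among them 11 of D0 A, 3 of D0 B, 7 of D9 A, 11 of D19 A, 5 of D19 B and 3 of STOP. Within the cluster, 91.5% of cells had a Ccl8 UMI, and its Ccl8 level was 2195 CPM in D0 A, 3252 in D0 B, 9175 in D3 A (1 cell), 13420 in D9 A, 381 in D9 B (3 cells), 2325 in D19 A, 5480 in D19 B, 2023 in D25 A (2 cells), 7342 in D25 B (1 cell) and 7463 in STOP.

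**Figure D4:**
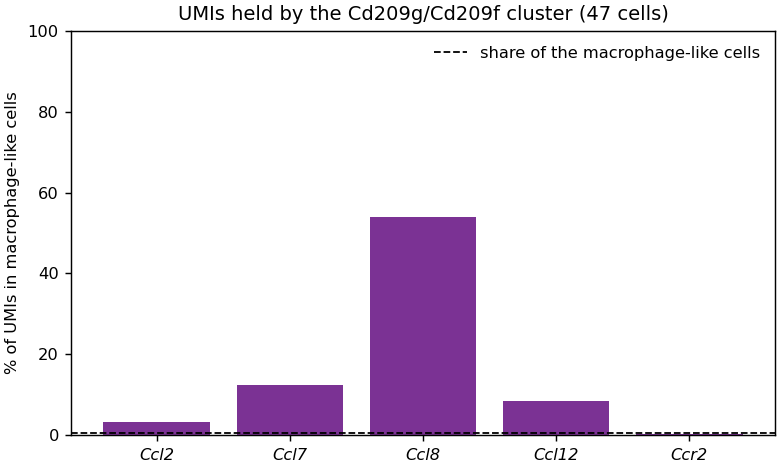
Share of the UMIs of each member in macrophage-like cells of all 13 libraries that lay in the 47 cells of the Cd209g and Cd209f cluster, in percent. The dashed line is the share of macrophage-like cells in the cluster (0.407%). Ccl8 stands at 53.9%, Ccl7 at 12.3%, Ccl12 at 8.53%, Ccl2 at 3.24% and Ccr2 at 0.182%.

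Over the days of DDC, Ccl8 in macrophage-like cells was at 62.4 (D0 A) and 139 CPM (D0 B), at 18.4 (D3 A), 0.288 (D3 B), 1.22 (D5 A) and 0.494 CPM (D5 B) at onset, and at 37.2 (D9 A), 26.1 (D9 B), 18.7 (D19 A), 72.1 (D19 B), 3.89 (D25 A) and 49.4 CPM (D25 B) during progression. The 3 lowest libraries were of onset, and D3 A was the exception, in which 81.3% of the Ccl8 UMIs were in 1 cell. Neither the contrast with D0 (edgeR, log2 fold change -2.65, SE 0.88, adjusted p = 0.103) nor that of progression with onset (edgeR, 2.10, SE 0.93, adjusted p = 0.459, with 0.148% of 12197 genes called) passed. Without D3 A the first was called (edgeR, -4.36, adjusted p = 0.00279) and the second was 5.59 (edgeR adjusted p = 0.0653). Over all fits that left out 1 library, they ranged from -4.36 to -1.81, the latter without D0 B, and from 1.57 to 5.59. Without the cluster of 47 cells, which was left out after the values were seen, the first contrast was called (edgeR, -3.00, adjusted p = 0.0195), whereas that of Ccl7 was not (edgeR, -1.86, adjusted p = 0.146). That fit called 610 of 12188 genes. In other macrophage-like cells without the cluster, Ccl8 was at 60.8 (D0 A) and 122 CPM (D0 B), at 0 to 0.290 CPM in the 4 onset libraries and at 2.93 to 45.95 CPM in the 6 progression libraries, with no overlap between the 3 stages. The share of all genes without overlap between the stages was not computed. With the cluster, D3 A had 184 Ccl8 UMIs in these cells, 183 of them in the cluster. The fitted fall from D0 without it was 5.78 on the log2 scale (edgeR adjusted p = 7.06e-05), in a fit that called 618 of 11537 genes. This is no independent test, since the cells were left out after their Ccl8 values were seen. Here too the D0 cells lay mostly in clusters that held few DDC cells or none. In the cluster led by Gdf15 and Gpnmb, Ccl8 was at 137 CPM in D0 A, from 25 UMIs in 2 cells, and at 0 to 6.63 CPM in 8 DDC libraries. With the 47 cells the log2 fold change was -3.23 (SE 0.93, edgeR adjusted p = 0.0598), and -6.63 without D3 A (edgeR adjusted p = 0.00118). The other fits without 1 library gave -3.48 to -3.00 and no call, and Ccl7 in other macrophage-like cells outside the cluster had a log2 fold change of -2.31 (edgeR adjusted p = 0.0429).

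Ccl12 in macrophage-like cells was at 13.02 CPM in D0 A and 104 CPM in D0 B and at 4.58 to 37.5 CPM with a median of 9.08 CPM under DDC. D0 A lay within the DDC range (edgeR, log2 fold change -1.83, SE 0.71, adjusted p = 0.162), and the contrast was called without D0 A (edgeR, -2.78, adjusted p = 0.0457) and 0.0032 without D0 B. In other macrophage-like cells it was -2.36 (SE 0.71, edgeR adjusted p = 0.0694), and called without D5 B (edgeR adjusted p = 0.0116) or D9 A (edgeR adjusted p = 0.022). A cluster of 1204 cells led by Fcrls, Ms4a7 and Tmem119 held 23.3% of all Ccl12 UMIs. Ccl8 in BEC-like cells rested on D19 B, with 558 UMIs of which 68.6% were in 1 cell, against at most 10.3 CPM in the other atlas libraries. The contrast of progression with onset was not called there (edgeR, 10.77, SE 3.04, adjusted p = 0.848), nor for Ccl8 in DC-like cells (edgeR, 4.57, SE 1.02, adjusted p = 0.289), where D9 B and D19 B had 100 and 126 UMIs. Of these, 93 in D9 B lay in 9 cells of 1 cluster, and 125 in D19 B lay in 2 cells of another. No gene was called in BEC-like cells (0% of 15992 genes, edgeR), with 906 genes at an unadjusted p under 0.05 and 12 called by DESeq2.

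Ccl2 had few UMIs, 1743 in 87083 atlas cells, and 878 of them lay in BEC-like cells. No neighbouring pair of classes passed the exact test, with means of 8.82 (BEC-like), 5.40 (monocyte-like), 3.72 (macrophage-like), 3.38 (fibroblast-like), 1.65 (DC-like) and 0.640 CPM (LSEC-like). BEC-like cells were higher than monocyte-like cells in 4 of 5 shared libraries and lower in none, the pair with too few libraries to pass. With at least 3000 UMIs per cell, macrophage-like and DC-like cells became neighbours and the former were higher in 10 of 12 libraries (exact p = 0.00244, adjusted p = 0.0122). In BEC-like cells, Ccl2 had 0 UMIs in 789 cells of D0 A, which allows up to 0.290 CPM. Under DDC it was at 1.43 (D3 B), 17.1 (D5 B), 11.4 (D9 A), 9.81 (D9 B), 14.2 (D19 A), 9.45 (D19 B), 12.8 (D25 A) and 3.12 CPM (D25 B), above that limit in 8 of 8 libraries. The mean of the 3 DDC libraries of protocol A (12.8 CPM) was at least 44.25-fold higher than the limit of D0 A, set at 3 UMIs in that library. The test against this single D0 library did not pass (edgeR adjusted p = 0.066), while DESeq2 called it (adjusted p = 0.00079), as did edgeR without D3 B (adjusted p = 0.0222) or D5 B (adjusted p = 0.0396). Of the 789 D0 cells, 688 were of 1 BEC-like cluster led by Lamc3 and Kcnma1, and the BEC-like cluster with the most Ccl2 UMIs was another, led by Cxcl5, Srd5a2 and Wfdc18 (18.8 CPM, 29.9% of all Ccl2 UMIs).

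**Figure D5:**
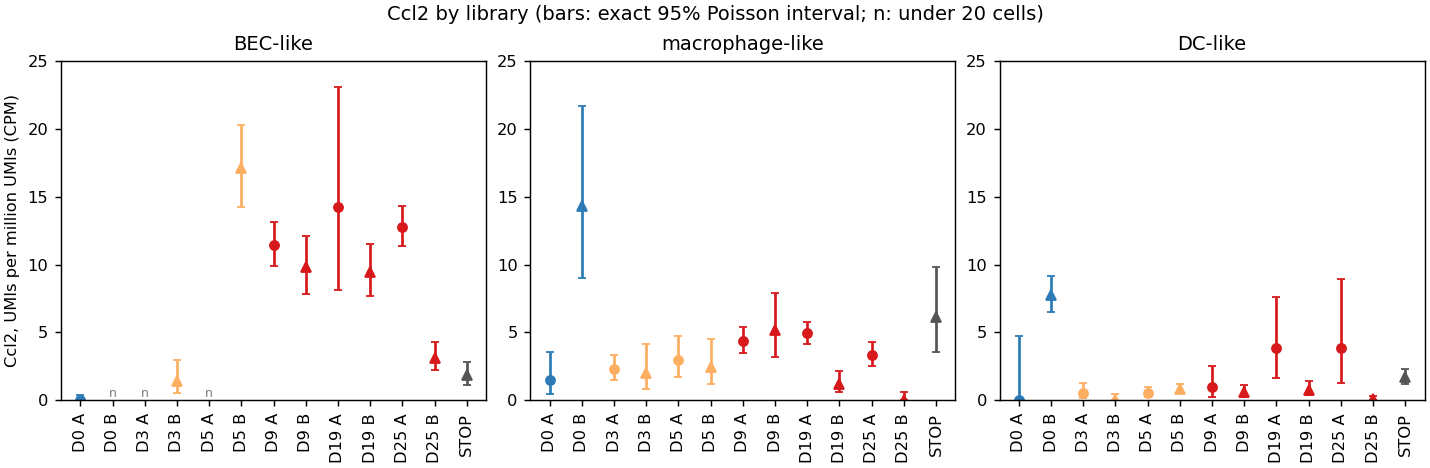
Ccl2 level by library in BEC-like, macrophage-like and DC-like cells, in CPM on linear axes of the same range. Circles are protocol A and triangles protocol B, with D0 in blue, D3 and D5 in orange, D9 to D25 in red and STOP in grey. Bars are exact 95% Poisson intervals, which cover counting error only, and n marks a library with under 20 cells of the class. BEC-like cells had 0 CPM in D0 A and 1.43 to 17.1 CPM under DDC, and D0 B was the highest library in macrophage-like (14.3 CPM) and DC-like cells (7.76 CPM).

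In macrophage-like cells Ccl2 was at 1.51 (D0 A) and 14.3 CPM (D0 B) and at 0 to 5.17 CPM under DDC (edgeR, log2 fold change -1.52, SE 0.95, adjusted p = 0.411). Without D0 A the contrast was called (edgeR, -3.10, adjusted p = 0.0493), and without D0 B it was 1.496 (edgeR adjusted p = 0.479). In DC-like cells 134 of 208 Ccl2 UMIs lay in D0 B, and the contrast (edgeR, -3.41, SE 0.87, adjusted p = 0.0718) turned to 6.72 without that library and was called without D0 A (edgeR adjusted p = 0.0118) or D19 A (edgeR adjusted p = 0.0486). Barcodes with 10 to 100 UMIs had 8.93 CPM of Ccl2 in D0 B, beside 7.76 CPM in its DC-like cells and 0 UMIs in its 1500 T-like cells, which allows up to 0.868 CPM. LSEC-like cells had no member called at either contrast, with 0.372% of 12886 genes called for DDC against D0 and 0.0388% for progression against onset. Between progression and onset, edgeR without a filter on low counts called Ccl8 in macrophage-like, BEC-like and DC-like cells. In the main edgeR fits of that contrast, none of 23 tests of the members was called and 4 had an unadjusted p under 0.05. In macrophage-like cells without the Cd209g and Cd209f cluster, 1249 of 12188 genes had such a p (edgeR). That contrast called 0% of 5315 genes in monocyte-like cells (edgeR, 303 at an unadjusted p under 0.05 and 12 by DESeq2), 0.0165% of 12151 genes in fibroblast-like and 0.0145% of 13771 genes in DC-like cells.

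Ccl8 and Ccl12 were found more often in macrophage-like cells with than without Ccl7, as a description with cells thinned to 1500 UMIs. Among 7 libraries, STOP included, with at least 20 cells with a Ccl7 UMI, the share with Ccl8 was higher in cells with than without Ccl7 in 6, and exact 95% binomial intervals were separate in 5. Pairs of other genes were not counted, so these counts have no background. In D0 B, 31.3% of 32 cells with Ccl7 and 1.47% of 272 cells without it had a Ccl8 UMI, and in D19 A these shares were 11.8% of 68 and 1.02% of 1868 cells. The Cd209g and Cd209f cluster was included, and shares outside it were not computed. It had 3 cells in D0 B and 11 in D19 A, beside 10 and 8 cells with both Ccl7 and Ccl8. For Ccl12 the share was likewise higher in 6 of 7 libraries, as in D9 A with 7.01% of 157 and 1.56% of 2940 cells. The share with Ccl2 was higher in 6 of 7 libraries too, but with separate intervals in 2. Ccr2 showed the other order in 5 of 7 libraries, as in D0 B (25.0% of cells with and 42.3% of cells without Ccl7), but the intervals were separate in 1.

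After the diet was stopped, Ccl7 in macrophage-like cells was higher than in D19 B, the library of the same protocol at the end of the diet. It was at 304 CPM in STOP (exact 95% Poisson interval 284 to 325, counting error only) and at 29.8 CPM in D19 B (26.3 to 33.5), a ratio of 10.2. DC-like cells had 46.9 and 9.09 CPM and BEC-like cells 24.2 and 10.4 CPM, while monocyte-like (527 CPM) and fibroblast-like cells (263 CPM) had under 20 cells in D19 B. Barcodes with 10 to 100 UMIs, which hold free RNA, had 53.6 CPM of Ccl7 in STOP and 13.7 CPM in D19 B, above the DC-like and BEC-like levels and in the same order, while T-like cells had 2.00 CPM in STOP and 0 UMIs in 2010 cells of D19 B, which allows up to 0.330 CPM. The part of free RNA in the DC-like and BEC-like values was not tested. Of the other ligands in macrophage-like cells, Ccl12 was at 55.8 against 22.1 CPM, Ccl8 at 112 against 72.1 CPM and Ccl2 at 6.12 against 1.21 CPM. The Cd209g and Cd209f cluster, with 3 cells in STOP and 5 in D19 B, held 219 of 311 and 301 of 657 Ccl8 UMIs, and outside it Ccl8 had the other order (33.5 against 39.3 CPM). It held 321 of the 844 Ccl7 UMIs of STOP, and outside it Ccl7 was at 190 against 29.3 CPM. In BEC-like cells Ccl2 was lower in STOP (1.86 against 9.45 CPM), as was Ccl8 (10.1 against 52.7 CPM). Ccr2 was at 394 against 319 CPM in macrophage-like, 383 against 666 CPM in DC-like and 133 against 91.5 CPM in BEC-like cells. The intervals of STOP and D19 B were separate for 12 of 20 values, including all those named here for Ccl7 and all 5 members in macrophage-like cells. They cover counting error only. The share of all genes with separate intervals was not computed, so the count is no result about the members. With 1 library each there is no replicate check and no test. Kupffer-like cells made up 26.3% of the macrophage-like cells in STOP and 15.2% in D19 B. The DC-like class also differed in makeup, with 1439 cDC1-like and 491 cDC2-like cells in STOP and 438 and 889 in D19 B. Within cDC1-like cells Ccl7 was at 55.1 against 13.8 CPM and Ccr2 at 394 against 505 CPM, and within cDC2-like cells Ccl7 was at 17.0 against 5.98 CPM and Ccr2 at 376 against 803 CPM, all with separate intervals.

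A list of 29 other genes of chemokine signalling and leukocyte adhesion was counted in the same fits. In macrophage-like cells, 2 of 26 tested genes rose and 2 fell against D0, where 4.99% of all genes were called. By edgeR, they included Ackr2, a receptor that scavenges CC chemokines (log2 fold change 3.72, SE 0.58, adjusted p = 0.00388), Ccl9 (1.62, SE 0.28, adjusted p = 0.00672) and Ccl4 (-2.39, SE 0.54, adjusted p = 0.0237). In BEC-like cells, 1 of 27 genes was called higher by edgeR against the single D0 library, the adhesion molecule Vcam1 (2.84, SE 0.58, adjusted p = 0.0476), where 1.46% of all genes were called, and no gene of the list was called in the other 4 classes or between progression and onset. The median log2 fold change of the list was -0.07 in macrophage-like and 1.51 in BEC-like cells. Kupffer-like cells differed from other macrophage-like cells in 20 of 24 genes by edgeR, 9 higher and 11 lower, against 44.8% of all genes, led by Ccr3 (2.25), Vcam1 (2.14), Cx3cr1 (-4.00) and Ccr1 (-3.03). In classical against nonclassical monocyte-like cells, 3 of 13 genes were higher and 3 lower by edgeR, against 18% of all genes, led by Ccr1 (3.82), Ccl9 (1.90), the integrin chain Itgal (-1.86) and Itga4 (-1.22). Within Kupffer-like cells, 4 of 26 genes rose and 2 fell under DDC by edgeR, against 1.86% of all genes, among them Ackr2 (4.16), Ccr1 (3.89) and Itgal (-1.04). Of the 403 Kupffer-like cells of D0 A, 292 lay in a cluster of 298 cells led by Gbp2b and Cxcl13, so that for D0 A this contrast too was largely between different clusters. Within other macrophage-like cells 6 of 26 fell, against 5.34%, led by Ccl4 (-2.67) and Ccl24 (-2.59).

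Over 59 sums of class and library, the genes whose log2(CPM + 1) followed each member most closely among 10946 genes were given as a description, since sums of 1 library share its depth. Ccr2 was followed by Ms4a6c, Ms4a6b and Arhgap30 (Pearson r 0.968 for each), Ccl12 by Ms4a7 (0.821), C3ar1 and Acp5, and Ccl7 by Tmem119 (0.758), Pcolce2 and Steap3. Ccl2 had Churc1 (0.668), Cmc1 and Nme1, and Ccl8 had C1qa (0.604), Adamdec1 and C1qc.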

How the data were processed

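Single cells were sequenced with droplet-based 3′ kits (10x v3.1), and the authors mapped the reads with kallisto (version not given in the sources used here) to GRCm38, per the labels. The deposited values were raw UMI counts per gene and barcode, with empty barcodes included. Cells were taken as barcodes of 1500 UMIs or more, scaled to 10000 per cell and log-transformed. They were clustered on 2000 variable genes, 40 principal components and 25 neighbours (Leiden in igraph 0.11.9, resolution 1.5, 59 clusters). The 5 members and 29 pathway genes were left out. The macrophage and monocyte lineage was clustered again at resolution 1.0 (23 clusters). A cluster was named, as "X-like", from at least 3 markers detected in at least 10% of its cells at 2 times the level of the rest, by rules set after the clusters were seen, and 4266 cells remained unnamed. Names rebuilt in this way can differ from those of the study. Doublets were called with Scrublet in scanpy 1.11.5, with the expected rate where its own threshold failed, and the 6586 calls were removed only as an alternative.

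Raw UMIs were summed per library and class with at least 20 cells and tested with edgeR 4.0.16 (TMM, filter on low counts, quasi-likelihood test, Benjamini-Hochberg over all genes, threshold 0.05), with 3 stages and the protocol as terms. DDC against D0 compares the mean of onset and progression with steady state. Subclasses were compared with the library as a block, so that the pairs shared 1 library. Class levels were compared by exact two-sided sign-flip tests on log2(CPM + 1) over libraries. DESeq2 1.42.0 served as an alternative. The fits were tested on simulated data. Depth was 29307190 to 108602421 UMIs per library, and Poisson and binomial intervals cover counting error only. The members and lists were chosen with earlier results of these data known. Named were the 5 members, the 2 pathway genes with the largest called change in each direction and the 3 genes most like each member. Clusters and libraries singled out beyond this were chosen after their values were seen. One gene of the pathway list was tested and counted but is not reported here.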

Additional observations from a re-analysis of the deposited data

Results flagged for a closer look

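Of 45 sets of 4 to 6 libraries of 1 stage, gene and class, 12 had a library apart from the others by Dixon's criterion. Chance gives this in about 1 of 20 sets of normally distributed values. That rate need not hold for these CPM values, since 1 UMI among libraries without any is flagged by itself. The count of 12 is thus a description and cannot be set against chance. Ccl7 in progression was at 69.78 CPM in the monocyte-like cells of D19 A (next library 9.488 CPM), at 481.3 CPM in the fibroblast-like cells of D9 A (next 162.9 CPM) and at 23.17 CPM in the DC-like cells of D19 A (next 9.088 CPM), where 47.9% of the UMIs were in 1 cell. Ccl8 was at 18.45 CPM in the macrophage-like cells of D3 A (next 1.221 CPM at onset) and at 52.74 CPM in the BEC-like cells of D19 B (next 10.3 CPM), with 81.3% and 68.6% of the UMIs in 1 cell. Ccl12 was at 37.53 CPM in the macrophage-like cells of D5 B (next 6.804 CPM at onset) and at 7.184 CPM in the BEC-like cells of D19 B (next 2.448 CPM), where 44.7% of the UMIs were in 1 cell.

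The remaining flags rested on few UMIs or on LSEC-like cells. Ccl8 was at 1.026 CPM in the monocyte-like cells of D19 A, from 1 UMI with 0 in the other libraries, and at 0.969 CPM in the LSEC-like cells of D5 B, from 3 UMIs. Ccl12 was at 0.323 CPM in the LSEC-like cells of D5 B, from 1 UMI. Ccr2 was at 21.32 CPM in the LSEC-like cells of D5 B (next 3.968 CPM) and at 1.831 CPM in those of D19 A, the lowest of progression (next 5.587 CPM).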

How the results depend on the processing

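Counts of called genes depended on the tool and the filter. For DDC against D0, DESeq2 called 1053 genes in macrophage-like, 14 in monocyte-like, 908 in BEC-like, 287 in LSEC-like, 43 in fibroblast-like and 676 in DC-like cells, and edgeR without a filter on low counts called 1281, 86, 1576, 495, 303 and 1070. For progression against onset, DESeq2 called 144, 12, 12, 72, 98 and 51 genes in the same order and edgeR without a filter 443, 38, 230, 301, 342 and 378. Without the protocol term, DDC against D0 gave 163 genes in macrophage-like, 836 in BEC-like and 20 in DC-like cells, and progression against onset gave 3 in macrophage-like and 0 in fibroblast-like and DC-like cells. With doublets removed, the first contrast gave 13 (BEC-like), 1 (fibroblast-like) and 14 (DC-like) and the second 11 (macrophage-like), 17 (fibroblast-like) and 0 (DC-like). The second contrast gave 9 in LSEC-like and 0 in fibroblast-like cells with at least 3000 UMIs per cell, and 0 in DC-like cells at cluster resolution 1.0. DESeq2 called 199 genes between classical and nonclassical monocyte-like cells. The causes were not tested.

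Leaving out 1 library at a time, the counts for DDC against D0 ranged from 367 to 1235 in macrophage-like, 0 to 0 in monocyte-like, 3 to 351 in BEC-like, 8 to 227 in LSEC-like, 0 to 1 in fibroblast-like and 14 to 1617 in DC-like cells. For progression against onset the ranges were 1 to 43, 0 to 1, 0 to 13, 1 to 42, 0 to 4 and 0 to 15, and they were 3835 to 4484 for Kupffer-like against other macrophage-like cells and 120 to 617 for classical against nonclassical cells. For DDC against D0 within Kupffer-like cells they ranged from 6 (without D0 A) to 362 (without D9 A) around 192, within other macrophage-like cells from 321 (without D0 B) to 1306 (without D0 A) around 620, and for the difference between these effects from 14 (without D0 B) to 200 (without D0 A) around 30.

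The log2 fold change of Ccr2 in macrophage-like cells under DDC turned to 0.040 without a filter and that of Ccl7 in fibroblast-like cells to 0.21 with at least 3000 UMIs. Ccl7 in Kupffer-like against other macrophage-like cells turned to -0.12 with DESeq2, -0.039 without a filter, -0.035 without doublets and -0.010 at resolution 1.0, and Ccl7 in Kupffer-like cells under DDC turned to -0.63 with DESeq2. None of these was called in the main test. Leaving out 1 library turned the sign, for DDC against D0, of Ccl2 (-3.10 to 1.496), Ccl12 (-2.78 to 0.0032) and Ccr2 (-0.51 to 0.68) in macrophage-like cells, of Ccl2 (-4.43 to 6.72), Ccl7 (-4.75 to 8.68) and Ccr2 (-0.14 to 0.63) in DC-like cells, of Ccl7 in fibroblast-like (-6.25 to 0.18) and Kupffer-like cells (-1.54 to 1.39) and of Ccl2 in other macrophage-like cells (-3.40 to 0.36), and that of Ccl7 between Kupffer-like and other macrophage-like cells (-0.25 to 0.29). The Ccl7 call in macrophage-like cells was also lost without the protocol term (adjusted p = 0.13) and with doublets removed (adjusted p = 0.0722), and kept with DESeq2 (adjusted p = 0.0313). Other member contrasts that were not called in the main test were called under other settings, in the same direction. Without a filter on low counts, edgeR called Ccl2, Ccl8 and Ccl12 in macrophage-like, Ccl2, Ccl7 and Ccr2 in BEC-like and Ccl2 and Ccl7 in DC-like cells for DDC against D0, and Ccl8 in all 3 classes for progression against onset. DESeq2 called Ccl2 (adjusted p = 0.00079) and Ccl7 (adjusted p = 0.000181) in BEC-like cells and Ccl8 between progression and onset in DC-like cells (adjusted p = 0.00693), edgeR without the protocol term called Ccl2 (adjusted p = 0.0478) and Ccl7 (adjusted p = 0.0377) in BEC-like cells, and edgeR at cluster resolution 1.0 called Ccl7 in DC-like cells (adjusted p = 0.0471).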
